A study of Mus musculus with 12 samples.

Results

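The regulators described here are the CNC basic leucine zipper factors Nfe2l1, Nfe2l2 and Nfe2l3, the small MAF proteins Maff, Mafg and Mafk, the repressors Bach1 and Bach2, and Keap1, which holds NRF2 in check. They were taken by symbol from the deposited expression table, and the 9 genes were found among 43346 listed genes. Messenger RNA of whole mouse kidney had been sequenced in 12 libraries. The 6 HP-AKI libraries (samples 7, 8, 9, 11, 12 and 13) came from kidneys harvested at day 1 after the injury, and the 6 sham libraries (samples 1 to 6) from sham mice of the same day. AKI is acute kidney injury, and HP-AKI is used in this field for injury by heme proteins, although the labels do not spell out the letters. Strain, sex, age and the injuring agent are not given in the sources used here, and the labels do not say whether each library is a separate animal. The p-values therefore rest on library-to-library spread, part or all of which could be technical.

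NRF2, the protein of Nfe2l2, is the main activator of antioxidant and detoxifying genes. In unstressed cells KEAP1 presents NRF2 to a CUL3 ubiquitin ligase for destruction, and electrophiles or oxidants modify KEAP1 so that NRF2 escapes. NRF2 binds the antioxidant response element (ARE) only as a dimer with a small MAF protein. BACH1 uses the same partners and the same elements to repress genes such as heme oxygenase 1, and heme binding removes BACH1 from DNA and marks it for degradation. NFE2L1 (NRF1) is made at the endoplasmic reticulum, cleaved and sent to the nucleus, where it drives proteasome genes. Small MAF proteins have no activation domain of their own, so that their dimers with each other repress and their dimers with CNC factors activate.

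Gene counts summed to 31624522 to 40630917 per library in HP-AKI and to 35201197 to 41951129 in sham. Of 17470 genes tested, 72.8% were called at an adjusted p of 0.05 in the quasi-likelihood F-test of edgeR (Benjamini-Hochberg adjustment), 37.7% higher and 35.2% lower in HP-AKI, and the median log2 fold change was 0.04. HP-AKI 8, sham 1 and sham 2 stood apart from the other libraries on the second principal component, which held 7.85% of the variance, and in these 3 libraries GC-rich transcripts were counted less often than in the rest of their group. Per 10 percentage points of transcript GC content, log2 counts-per-million (CPM) changed by -0.42 in HP-AKI 8 relative to the mean of its group, by -0.32 in sham 1 and by -0.46 in sham 2. The other libraries lay between -0.17 (HP-AKI 9) and 0.32 (HP-AKI 13). The fold changes of the 9 regulators, the small MAF and CNC pools, the level order and the ratio of Nfe2l2 to Keap1 are given with and without these 3 libraries. The fold changes of all other genes are given with all libraries only. All 6 proximal tubule markers checked, among them Lrp2 and Cubn, were present in every library.

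Of the 9 regulators, all of which passed the filter on low counts, 7 rose, 1 fell and Nfe2l1 did not pass. The median log2 fold change of the 9 was 1.24. A share of 8 in 9 genes called stands against 72.8% of all genes called in either direction. The groups did not overlap, with every HP-AKI library above every sham library, in Maff, Mafk, Nfe2l3, Bach1, Nfe2l2 and Mafg, against 26.7% of all tested genes with this pattern, 25.8% with the opposite one and 52.4% with either. Called differences of at least 2-fold were found in 5 of the 9 (Maff, Mafk, Nfe2l3, Bach1 and Nfe2l2) and in 33.1% of all tested genes. The differences ranged from 65.7-fold higher for Maff to 1.43-fold lower for Bach2.

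**Figure D1:**
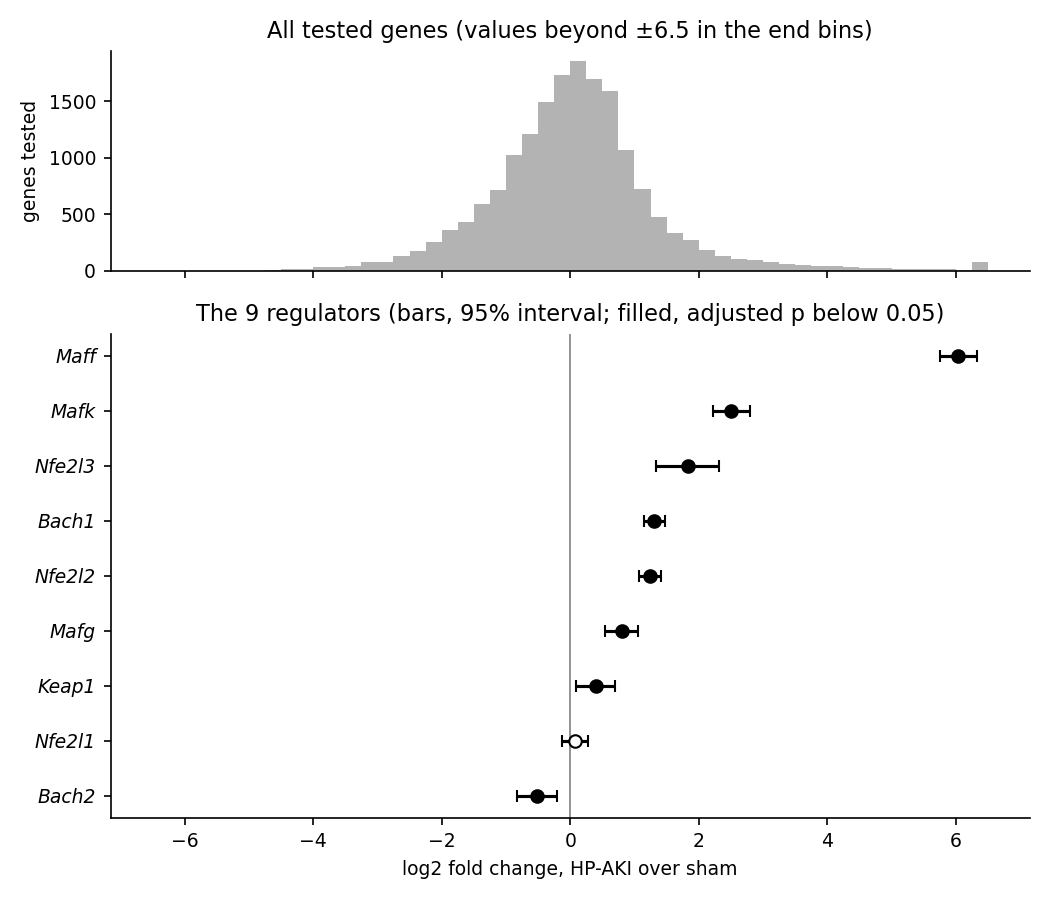
Log2 fold changes (HP-AKI over sham) of all 17470 tested genes as a histogram (upper panel) and of the 9 regulators with 95% intervals (lower panel, filled where the adjusted p was below 0.05). Maff lies far to the right at 6.04, Mafk follows at 2.51, and Nfe2l1 lies at 0.08 with an interval across 0.

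The promoters of the regulators that rose together are shown because 4 of the 7, Nfe2l2, Maff, Mafg and Mafk, held the core letters of the ARE near an annotated start. Windows of 300 bases, 250 before and 50 after each RefSeq transcript start (GRCm38.p6), were searched on both strands for the ARE core TGACNNNGC, the AP-1 site TGANTCA and the cyclic AMP response element (CRE) TGACGTCA. All 9 genes had at least 1 window and together they had 15, of which 3 windows of Nfe2l1 overlap each other. The ARE core was found in 4 of these 15 windows and in 12.4% of all 32841 windows. Counted by gene, it was found in 4 of the 9 and in 14.0% of all 27018. It was also found in 7 of 16 windows of NRF2 target genes of glutathione, thioredoxin and NADPH metabolism. In NRF2 target genes of detoxification and export it was found in 2 of 15 windows, both of Abcc4. Heme and iron genes repressed by BACH1 held it in 0 of 5 windows. Those windows covered only 3 genes of that list, and no window of Hmox1 was searched. Proteasome subunits held it in 4 of 27 windows. The CRE was found in 1 of the 15 windows, at Maff, against 1.79% of all windows, and the AP-1 site in none of the 15, against 7.81%. In the sequences below, written 5′ to 3′ on the strand of the gene, capitals mark these matches. The 3 motifs share letters, but no window of the 9 genes held more than 1 match.
Nfe2l2, chr2:75704614-75704913, minus strand: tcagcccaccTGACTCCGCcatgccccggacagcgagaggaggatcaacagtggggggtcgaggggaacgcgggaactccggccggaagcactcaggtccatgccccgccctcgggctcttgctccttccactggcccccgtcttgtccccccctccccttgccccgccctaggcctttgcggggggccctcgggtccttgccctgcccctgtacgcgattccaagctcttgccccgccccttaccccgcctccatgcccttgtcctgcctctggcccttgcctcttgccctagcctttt
Maff, upstream start, chr15:79346371-79346670, plus strand: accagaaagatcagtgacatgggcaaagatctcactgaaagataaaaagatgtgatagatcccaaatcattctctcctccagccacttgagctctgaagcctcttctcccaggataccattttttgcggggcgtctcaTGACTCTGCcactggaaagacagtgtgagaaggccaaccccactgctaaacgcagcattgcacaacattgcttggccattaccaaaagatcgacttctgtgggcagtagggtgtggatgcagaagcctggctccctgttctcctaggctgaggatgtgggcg
Maff, start next to the listed gene start, chr15:79347270-79347569, plus strand: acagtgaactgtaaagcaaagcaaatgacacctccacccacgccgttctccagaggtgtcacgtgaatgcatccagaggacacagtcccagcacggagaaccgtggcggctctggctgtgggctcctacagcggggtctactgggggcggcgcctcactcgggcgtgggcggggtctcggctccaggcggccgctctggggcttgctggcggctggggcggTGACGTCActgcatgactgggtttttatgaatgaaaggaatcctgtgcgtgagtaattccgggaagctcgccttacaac
Mafg, chr11:120633498-120633797, minus strand: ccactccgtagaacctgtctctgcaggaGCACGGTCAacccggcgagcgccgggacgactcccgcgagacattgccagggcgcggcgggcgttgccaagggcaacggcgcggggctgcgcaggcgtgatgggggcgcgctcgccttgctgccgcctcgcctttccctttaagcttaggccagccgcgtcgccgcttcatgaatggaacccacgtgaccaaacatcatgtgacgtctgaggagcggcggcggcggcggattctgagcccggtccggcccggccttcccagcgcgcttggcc
Mafk, chr5:139791286-139791585, plus strand: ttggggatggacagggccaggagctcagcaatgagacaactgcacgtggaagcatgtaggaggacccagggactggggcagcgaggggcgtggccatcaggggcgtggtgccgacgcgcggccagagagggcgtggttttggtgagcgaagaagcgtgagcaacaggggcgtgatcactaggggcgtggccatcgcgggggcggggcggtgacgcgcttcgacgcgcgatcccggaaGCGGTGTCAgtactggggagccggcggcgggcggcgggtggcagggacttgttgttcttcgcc
The ARE core starts 240 bases before the start of Nfe2l2 as TGACTCCGC. At the upstream start of Maff it starts 112 bases before the start as TGACTCTGC, while the CRE lies 29 bases before the start next to the listed gene start. A further window of Maff, downstream of both, held no match and is not shown. In Mafg and Mafk the core lies on the opposite strand, 222 and 13 bases before the start, and reads GCACGGTCA and GCGGTGTCA on the strand of the gene. These are matches of letters only, and the data do not show which proteins bound there or which start was used.

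Among the CNC factors, Nfe2l2 rose, Nfe2l3 rose at a very low level and Nfe2l1 did not pass. Nfe2l2 (ENSMUSG00000015839, chromosome 2, 75675513 to 75704641, protein-coding, GRCm38) had 255, 269 and 347 CPM as the lowest, median and highest value in HP-AKI, against 108, 117 and 136 CPM in sham. Every HP-AKI library thus had more than the highest sham library. The means were 282 ± 33.8 CPM in HP-AKI and 119 ± 11.4 CPM in sham (SD, n = 6 each), a log2 fold change of 1.24 ± 0.09 (SE; adjusted p 8.55e-09) or 2.36-fold. The highest value in each group came from libraries that count GC-rich transcripts less often, HP-AKI 8 and sham 1, and Nfe2l2 transcripts are GC-poor at 45.0%. Without HP-AKI 8, sham 1 and sham 2 the log2 fold change was 1.21.

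Nfe2l1 (ENSMUSG00000038615, chromosome 11, 96817414 to 96829968) was close to Nfe2l2 in its sham level per kilobase. Its lowest, median and highest values were 139, 169.6 and 199 CPM in HP-AKI, against 132, 171 and 182 CPM in sham. The groups overlapped over most of their range, with HP-AKI 8 and sham 2 lowest. The log2 fold change was 0.08 with a 95% interval of -0.12 to 0.28 (adjusted p 0.508), and without HP-AKI 8, sham 1 and sham 2 it was -0.010. Nfe2l3 (ENSMUSG00000029832, chromosome 6, 51432670 to 51458768), a CNC factor that is also anchored at the endoplasmic reticulum, had the lowest level per kilobase of the 3. It had 2.18, 3.89 and 4.57 CPM in HP-AKI, against 0.567, 1.10 and 1.70 CPM in sham, from 841 counts over the HP-AKI libraries and 231 over the sham libraries. The groups did not overlap, and the log2 fold change was 1.83 ± 0.25 (SE; adjusted p 8.70e-06) or 3.56-fold, and 1.93 without HP-AKI 8, sham 1 and sham 2. In bulk tissue a change in the cells that express a gene and a change in RNA per cell cannot be told apart, which holds for every gene below as well.

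The 3 small MAF genes all rose, by very different amounts. Maff (ENSMUSG00000042622, chromosome 15, 79347541 to 79359072) is the small MAF gene known to be induced by stress and inflammatory signals. Its lowest, median and highest values were 104, 127 and 136 CPM in HP-AKI, against 1.49, 1.75 and 2.82 CPM in sham, where it was almost silent. The lowest HP-AKI library was far above the highest sham library. The means were 123 ± 11.4 CPM in HP-AKI and 1.87 ± 0.481 CPM in sham (SD, n = 6 each), a log2 fold change of 6.04 ± 0.15 (SE; adjusted p 1.64e-13). A larger rise was fitted for 0.464% of all tested genes. The relative spread between libraries was 9.28% of the mean in HP-AKI and 25.8% in sham, where Maff rested on 410 counts over the group. Without HP-AKI 8, sham 1 and sham 2 the log2 fold change was 5.92.

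Mafk (ENSMUSG00000018143, chromosome 5, 139791513 to 139802653), the small MAF partner also known as a subunit of erythroid NF-E2, had 77.1, 104 and 137 CPM in HP-AKI, against 14.3, 19.4 and 20.5 CPM in sham. No library of HP-AKI came near the sham range. The log2 fold change was 2.51 ± 0.14 (SE; adjusted p 6.22e-10) or 5.69-fold. Mafg (ENSMUSG00000051510, chromosome 11, 120625117 to 120633600), the small MAF gene with the highest sham level per kilobase, had 124, 157 and 191 CPM in HP-AKI, against 68.8, 97.0 and 101 CPM in sham. Its groups did not overlap either, and the log2 fold change was 0.80 ± 0.13 (SE; adjusted p 4.55e-05) or 1.74-fold. Both genes are GC-rich, Mafg at 60.9% and Mafk at 58.5%, and sham 1 and sham 2 had the lowest sham values of both. Without HP-AKI 8, sham 1 and sham 2 the log2 fold changes were 2.37 for Mafk and 0.67 for Mafg. Mafg shares 124 exonic bases with Sirt7 on the same strand, which had 10345 counts over the 12 libraries. Mafk shares 169 with Tmem184a on the opposite strand, which had 6485. The library kit does not mark strand, so reads from the stretch shared by Mafk and Tmem184a cannot be told apart by strand. Mafg and Sirt7 lie on the same strand, where strand could not separate the reads in any case. The counts in both stretches are uncertain.

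Per kilobase of the listed gene length, the small MAF transcripts together came to 112 ± 13.8 CPM per kilobase in HP-AKI and 21.4 ± 3.50 CPM per kilobase in sham (SD, n = 6 each), a 5.25-fold difference. The make-up of this pool differed as well. Maff made up 52.0% ± 3.56 of it in HP-AKI and 4.16% ± 0.914 in sham. Mafg made up 24.6% ± 1.92 in HP-AKI and 74.1% ± 0.956 in sham. Mafk made up 23.4% ± 1.98 in HP-AKI and 21.8% ± 0.464 in sham. The CNC factor pool was 107 ± 6.72 CPM per kilobase in HP-AKI and 61.8 ± 2.36 CPM per kilobase in sham. Its Nfe2l2 share was 69.1% ± 4.42 in HP-AKI and 50.8% ± 5.03 in sham. The ratio of the small MAF pool to the summed CNC and BACH pools, on the same scale, was 0.852 ± 0.121 in HP-AKI and 0.295 ± 0.0495 in sham. Without HP-AKI 8, sham 1 and sham 2 the small MAF pool was 114 ± 14.7 CPM per kilobase in HP-AKI (n = 5) and 23.6 ± 0.697 CPM per kilobase in sham (n = 4), a 4.82-fold difference. The Maff share was then 50.9% ± 2.71 in HP-AKI and 3.91% ± 1.06 in sham. The CNC pool was 105 ± 4.18 in HP-AKI and 62.2 ± 2.01 in sham, with an Nfe2l2 share of 67.4% ± 2.21 in HP-AKI and 47.6% ± 1.16 in sham. These sums were not tested.

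**Figure D2:**
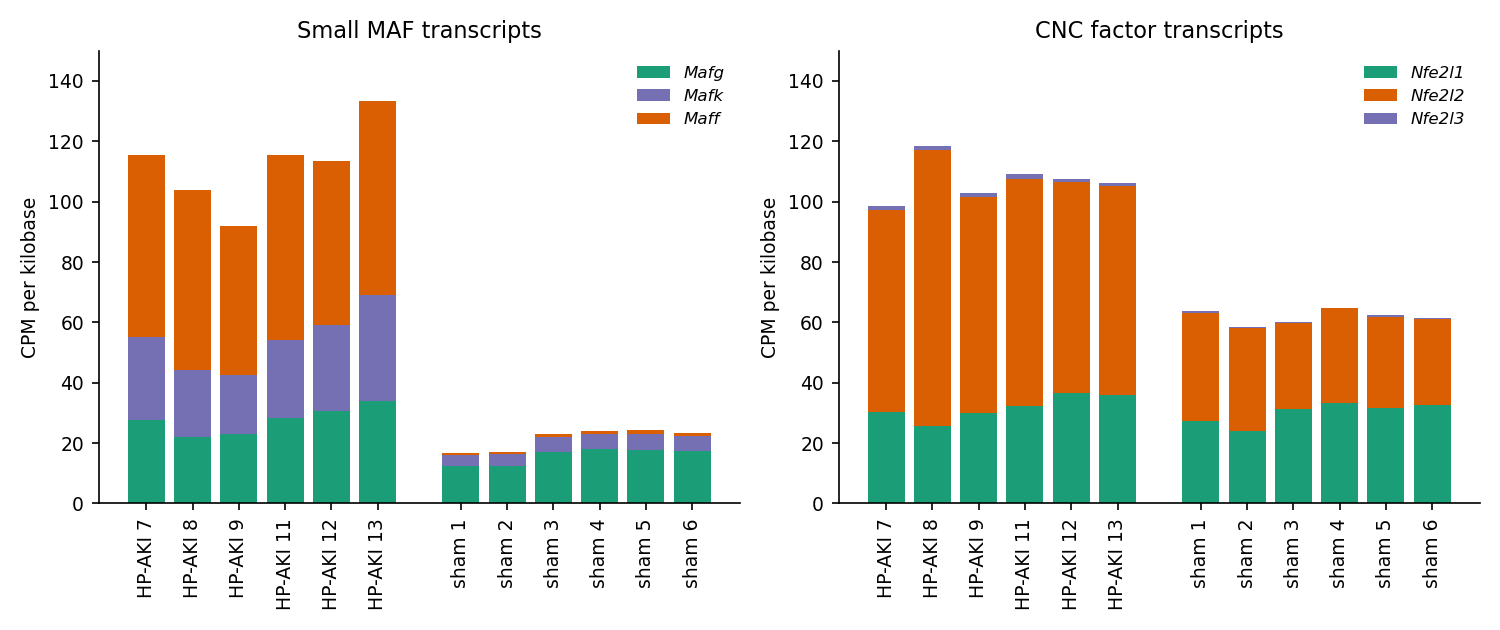
Stacked levels per library, in CPM per kilobase of listed gene length, of the small MAF transcripts (left) and the CNC factor transcripts (right), HP-AKI libraries left of sham libraries in each panel. The small MAF total is 91.8 to 133 in HP-AKI and 16.7 to 24.3 in sham, with Maff as the largest part in HP-AKI and Mafg in sham.

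Of the repressors, Bach1 rose and Bach2 fell. Bach1 (ENSMUSG00000025612, chromosome 16, 87698945 to 87733346), the heme-sensing repressor of Hmox1, had 138, 147 and 181 CPM as the lowest, median and highest value in HP-AKI, against 55.1, 59.4 and 72.2 CPM in sham. The groups did not overlap, and HP-AKI 8 and sham 2 were the highest of each. The log2 fold change was 1.31 ± 0.09 (SE; adjusted p 2.72e-09) or 2.48-fold, and 1.29 without HP-AKI 8, sham 1 and sham 2. Bach2 (ENSMUSG00000040270, chromosome 4, 32238804 to 32586108), best known as a regulator of B and T lymphocytes, was scarce, with 5.12, 5.80 and 8.68 CPM in HP-AKI, against 7.54, 8.78 and 11.8 CPM in sham. The groups overlapped, with 4 of the 6 HP-AKI libraries below the lowest sham library. The log2 fold change was -0.52 ± 0.16 (SE; adjusted p 0.00772), a 1.43-fold lower level, and -0.57 without HP-AKI 8, sham 1 and sham 2. Bach2 shares 537 exonic bases with the antisense gene Bach2os, which had 16 counts over the 12 libraries. T cell markers moved with it. All 5 T cell markers (Cd3e, Cd3d, Cd3g, Cd8a and Cd4) fell, and their summed level was 0.877 to 1.41 CPM in HP-AKI and 4.71 to 6.49 CPM in sham. None of the 5 was at 0 in any library, and their part in the Bach2 result was not tested.

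Keap1 (ENSMUSG00000003308, chromosome 9, 21229730 to 21239332), the substrate adaptor that targets NRF2 for ubiquitination, passed the test narrowly. It had 18.8, 31.8 and 34.9 CPM as the lowest, median and highest value in HP-AKI, against 16.6, 24.1 and 25.4 CPM in sham. The groups overlapped, with 4 of the 6 HP-AKI libraries above the highest sham library. The log2 fold change was 0.40 ± 0.15 (SE; adjusted p 0.0318) or 1.31-fold. The call ended when any 1 of HP-AKI 7, 11, 12 or 13 or of sham 1 or 2 was left out (log2 fold changes 0.32 to 0.35, adjusted p 0.0718 to 0.0923). The cause of this dependence was not tested. Keap1 is GC-rich at 58.5%, and its lowest libraries were the 3 that stand apart, with 18.8 CPM in HP-AKI 8 and 16.6 and 17.8 CPM in sham 2 and sham 1. The other libraries had 24.7 to 34.9 CPM in HP-AKI and 23.9 to 25.4 CPM in sham. Without these 3 libraries the log2 fold change was 0.30 ± 0.09 (adjusted p 0.00928). With offsets for the GC trend of each library, chosen after seeing the data, it was 0.39 ± 0.06 (adjusted p 1.80e-05). The offsets were fitted to deviations within the groups of these same libraries. The smaller standard error and p-value were thus largely built in, and they do not settle the call. Keap1 shares 510 exonic bases with Gm16754 on the opposite strand, which had 28 counts over the 12 libraries.

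**Figure D3:**
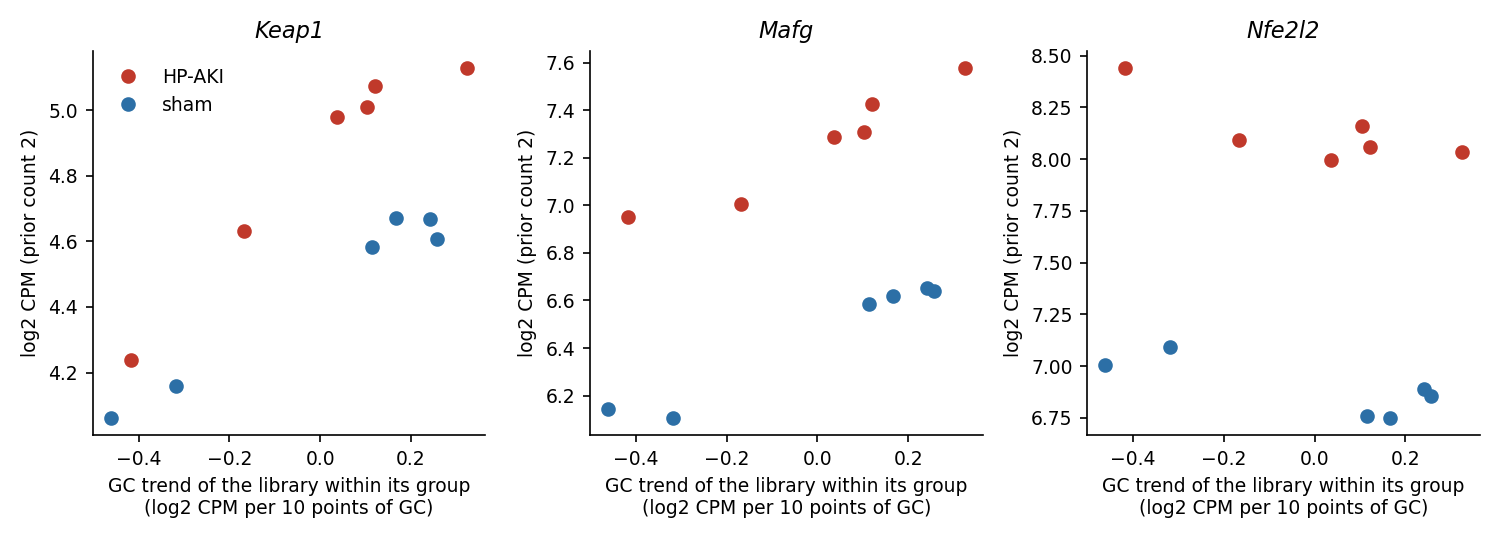
Level of Keap1, Mafg and Nfe2l2 (log2 CPM) against the GC trend of each library relative to its group (change in log2 CPM per 10 percentage points of transcript GC content). Keap1 and Mafg, both GC-rich, are lowest in the libraries at the left of each group (HP-AKI 8, sham 1 and sham 2), while GC-poor Nfe2l2 is highest there.

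**Figure D4:**
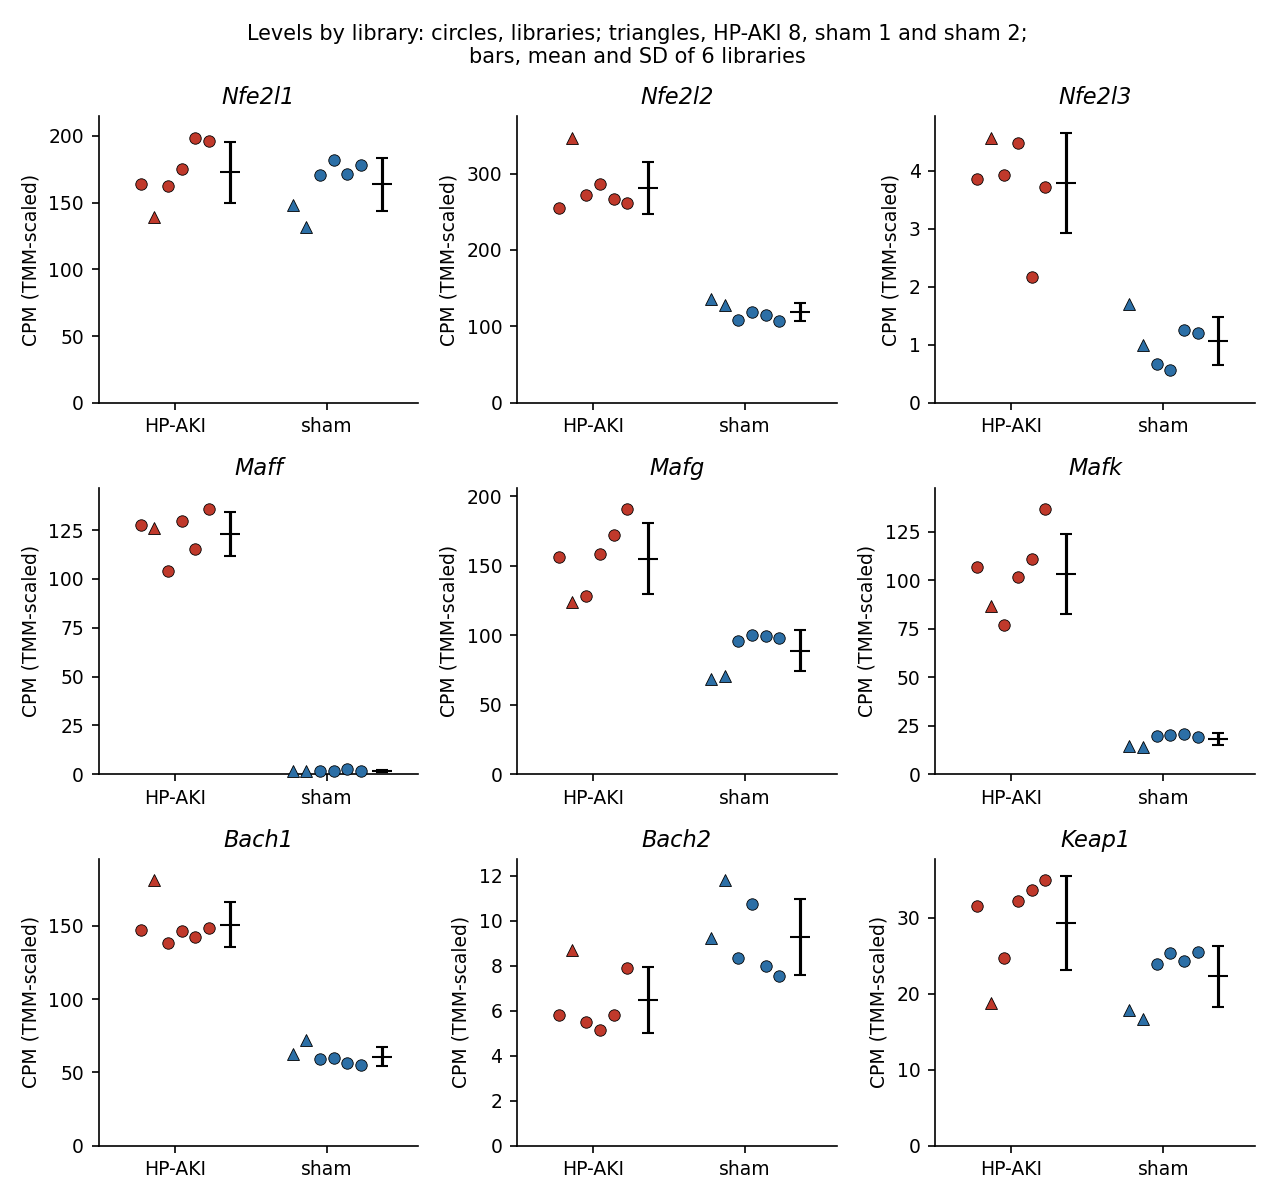
TMM-scaled CPM of the 9 regulators in the 6 HP-AKI libraries (red) and the 6 sham libraries (blue), with mean and SD beside the points and triangles for HP-AKI 8, sham 1 and sham 2. In 6 genes every HP-AKI point lies above every sham point, and the points of Nfe2l1, Bach2 and Keap1 overlap.

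Differences in response between related regulators were tested for 7 pairs on the within-library log2 ratio of both genes (exact permutation test over all 924 divisions of the libraries, two-sided, adjusted over the 7 pairs). The smallest raw p this design allows is 0.00216. The log2 ratio of Maff to Mafg was -0.32 ± 0.21 in HP-AKI and -5.54 ± 0.33 in sham (SD, n = 6 each), a difference of 5.22 (exact permutation, adjusted p 0.00303). Maff also rose more than Mafk, by 3.53, and Mafk more than Mafg, by 1.70, both at the same adjusted p and with no overlap of the groups. The ratio of Mafk to Mafg varied little between libraries, at -0.59 ± 0.10 in HP-AKI and -2.29 ± 0.04 in sham. Nfe2l2 rose relative to Nfe2l1, by 1.16, and Bach1 relative to Bach2, by 1.83, again with no overlap and an adjusted p of 0.00303 (exact permutation). Nfe2l2 rose relative to Keap1 by 0.85 (adjusted p 0.00758, exact permutation), but here the groups overlapped. Without HP-AKI 8, sham 1 and sham 2 this difference was 0.92 and the groups did not overlap (adjusted p 0.00926, exact permutation). The libraries left there allow only 126 divisions and a smallest raw p of 0.00794, which this pair reached.

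For the activator Nfe2l2 and the repressor Bach1 no difference in response passed. The log2 ratio of Nfe2l2 to Bach1 was 0.90 ± 0.08 in HP-AKI and 0.97 ± 0.11 in sham (SD, n = 6 each), a difference of -0.07 ± 0.05 (SE) that did not pass (exact permutation, adjusted p 0.214). In CPM per kilobase of listed gene length, the ratio of Nfe2l2 to Bach1 was 3.04 ± 0.166 in HP-AKI and 3.20 ± 0.238 in sham. Over 15 alternatives this difference ran from -0.10 to -0.04.

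Ordered by CPM per kilobase in HP-AKI, Nfe2l2 (74.2 ± 8.92) came first, then Maff (58.1 ± 5.39), Nfe2l1 (31.7 ± 4.14), Mafg (27.6 ± 4.56), Mafk (26.5 ± 5.33), Bach1 (24.4 ± 2.48), Keap1 (6.28 ± 1.33), Nfe2l3 (1.27 ± 0.290) and Bach2 (0.651 ± 0.146). The ranges of neighbours overlapped from Nfe2l1 down to Bach1 and between Nfe2l3 and Bach2. In sham the order was Nfe2l2 (31.4 ± 3.0), Nfe2l1 (30.1 ± 3.59), Mafg (15.8 ± 2.67), Bach1 (9.84 ± 0.998), Keap1 (4.77 ± 0.847), Mafk (4.65 ± 0.748), Bach2 (0.933 ± 0.168), Maff (0.882 ± 0.227) and Nfe2l3 (0.358 ± 0.141). There the overlapping neighbours were Nfe2l2 and Nfe2l1, Keap1 and Mafk, and Bach2 and Maff. Maff was thus the second of the 9 in HP-AKI and the eighth in sham. Without HP-AKI 8, sham 1 and sham 2 the order in HP-AKI was the same. In sham Nfe2l1 (32.2 ± 0.995) then came before Nfe2l2 (29.6 ± 1.44) with separate ranges, and Maff before Bach2 with overlapping ranges.

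The genes on which these regulators act, and those that act on them, were followed in 10 lists of 108 genes, of which 104 were tested and 4 (Gpx2, Nfe2, Mafa and Nrl) were removed by the filter on low counts. Of the 104, 75 rose, 15 fell and 14 did not pass, where 37.7% of all tested genes were called higher, 35.2% lower and 72.8% in either direction. The counts of each list stand against the same shares. Of 13 tested NRF2 target genes of glutathione, thioredoxin and NADPH metabolism, 12 rose and 1 fell, with a median log2 fold change of 1.53. Slc7a11, which imports cystine for glutathione synthesis, and Srxn1, which repairs oxidized peroxiredoxins, had the largest rises (9.06 ± 0.32 and 4.97 ± 0.12, SE), and Prdx1, an abundant peroxiredoxin, rose by 0.89. Me1, malic enzyme, fell by 1.13. Of 15 NRF2 target genes of detoxification and export, 10 rose, 3 fell and 2 did not pass, with a median of 0.77. Gsta1, a glutathione transferase, had 62.1 ± 19.4 CPM in HP-AKI and 0.934 ± 0.263 CPM in sham (SD, n = 6 each), a log2 fold change of 6.05. Akr1b8, an aldo-keto reductase, rose by 4.68, while Ugt1a6a, a glucuronosyltransferase, fell by 0.65. Gsta1 and Ugt1a6a belong to families of near-identical or exon-sharing genes, so their counts are uncertain.

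Of 6 heme and iron genes known to be repressed by BACH1, 5 rose, with a median of 1.39, while the iron exporter gene Slc40a1 did not pass (-0.18). Hmox1 rose by 6.91 and Blvrb, biliverdin reductase B, by 2.79 ± 0.25 (SE), beside the rise of Bach1 transcripts given above. Fth1, the ferritin heavy chain, had the highest mean CPM of the list, at 5771 ± 279 CPM in HP-AKI and 2271 ± 163 CPM in sham. Without HP-AKI 8, 1 gene of this list fell. Of 4 genes of BACH degradation and nuclear export, 2 fell and 2 did not pass, of which 1 rose when sham 2 was left out. Fbxo22, the F-box protein that marks BACH1 for degradation, had 59.5 ± 5.26 CPM in HP-AKI and 94.0 ± 4.0 CPM in sham (log2 fold change -0.66 ± 0.07). Xpo1, the nuclear exporter, did not pass at 0.14.

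Of 8 genes of the KEAP1-CUL3 ligase and KEAP1 partners, 4 rose, 1 fell and 3 did not pass, with a median of 0.22. The 5 of 8 called are near the 72.8% of all tested genes. The number that rose was 3 to 6 over 21 alternatives, and 2 fell when HP-AKI 12 was left out. Sqstm1, the autophagy receptor p62 that binds KEAP1, had 2446 ± 423 CPM in HP-AKI and 297 ± 46.4 CPM in sham, a log2 fold change of 3.04 ± 0.14 (adjusted p 6.32e-11). Pgam5, a mitochondrial phosphatase that binds KEAP1, rose by 1.01, and Nedd8, the modifier that activates cullins, fell by 0.48. Cul3 itself did not pass at 0.20. Of 8 genes that act on NRF2 turnover outside KEAP1, 5 rose and 3 fell. Gsk3b, the kinase that marks NRF2 for the β-TrCP ligase, rose by 0.86. The parts of that ligase moved in both directions, since the cullin Cul1 rose by 0.53 and the F-box gene Fbxw11 by 0.35, while the F-box gene Btrc fell by 0.52 and the adaptor Skp1a by 0.77. Ddb1, an adaptor of CUL4 ligases, rose by 0.35. Dcaf11, the receptor of another NRF2 ligase, fell by 0.96.

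The list around NFE2L1 was mixed, while its known target genes rose. Of 9 genes of NFE2L1 retrotranslocation, deglycosylation and cleavage, 5 rose, 3 fell and 1 did not pass. The ATPase Vcp and its cofactors Nploc4 and Ufd1, which pull NFE2L1 out of the membrane, rose by 0.83, 1.51 and 1.27, and the glycosyltransferase Ogt fell by 1.10. Ngly1, which removes its sugars, and Ddi2, the protease that cleaves it, fell by 0.42 and 0.19, Ddi2 with an adjusted p of 0.0330. Of the 3 falls in this list 2 were left with library size as the only scaling and without HP-AKI 11, sham 2, sham 3 or sham 6. Of 31 proteasome subunits 30 rose and Psma4 did not pass (0.15), with a median of 0.80, against 37.7% of all genes called higher. Psmd11 had 349 ± 8.14 CPM in HP-AKI and 90.5 ± 6.88 CPM in sham, a log2 fold change of 1.95, the largest of the list. Psmd4, a ubiquitin receptor, rose by 1.29, and Psmd2, the subunit with the highest mean CPM, by 1.09. Nfe2l1 transcripts did not pass beside this, as given above.

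**Figure D5:**
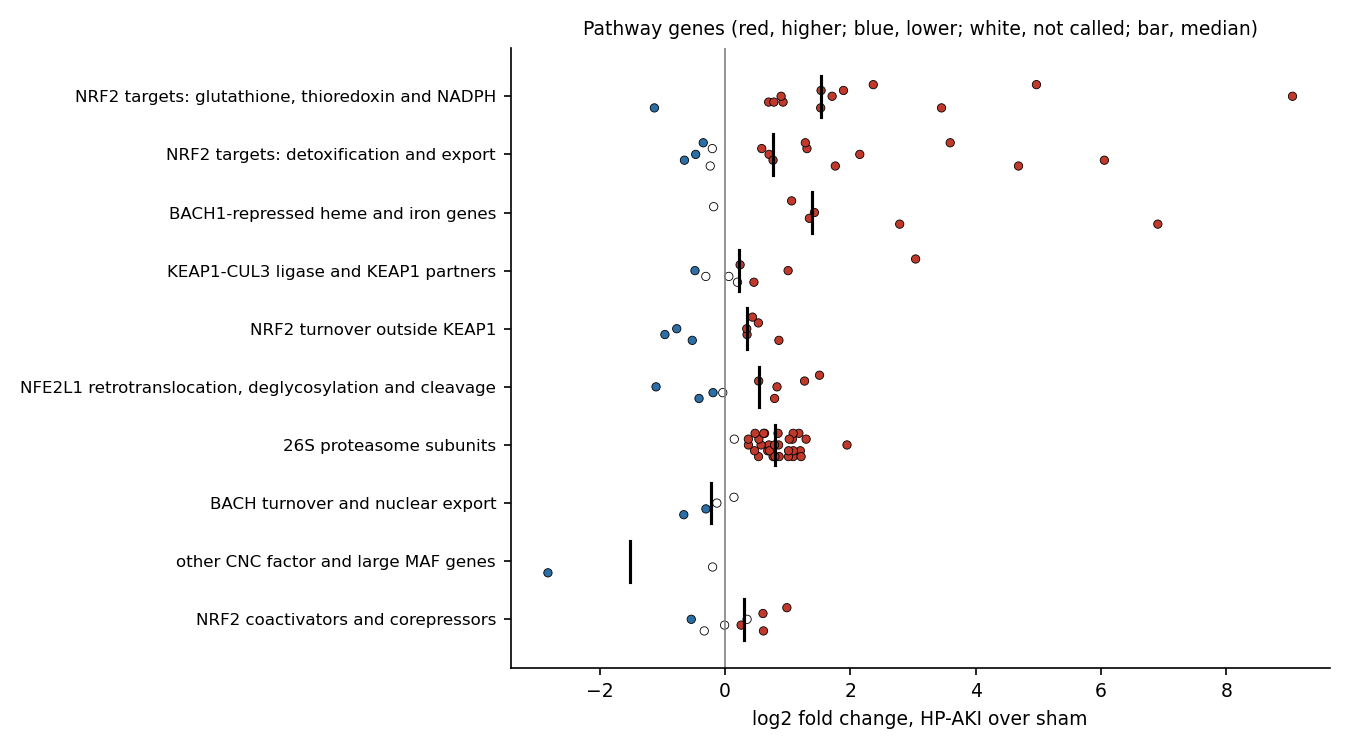
Log2 fold changes (HP-AKI over sham) of the tested genes in 10 lists around the regulators, 1 point per gene, red where called higher, blue where called lower and white where not called, with a bar at the median of each list. The points of the proteasome list lie between 0.15 and 1.95, and those of the NRF2 target lists reach 9.06 to the right and -1.13 to the left.

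Among the other CNC and large MAF genes, Maf fell. Maf, a large MAF factor with an activation domain, had 38.5 ± 6.73 CPM in HP-AKI and 273 ± 51.7 CPM in sham (SD, n = 6 each), a log2 fold change of -2.83 ± 0.14 (adjusted p 1.37e-10), in the opposite direction to the small MAF genes. Proximal tubule markers moved with Maf. All 6 fell, against 35.2% of all tested genes called lower. The sum of the 6 was 1646 to 2695 CPM in HP-AKI and 8785 to 10337 CPM in sham. Their part in this result was not tested. Of 8 coactivators and corepressors of NRF2, 4 rose, 1 fell and 3 did not pass, with Crebbp at 0.61 and Chd6 at -0.54, while Ncoa3, the list member with the highest mean CPM, lay at -0.01. In this list 2 genes fell when either HP-AKI 13 or sham 2 was left out.

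Neutrophil markers were also higher in HP-AKI, with 4 of 4 tested called and a sum of 17.4 to 149 CPM in HP-AKI and 1.80 to 3.34 CPM in sham. Monocyte and macrophage markers were mixed, with Cd68 higher and the other 4 lower. Of 4 endothelial markers 3 rose, with a sum of 390.3 to 619.6 CPM in HP-AKI and 357 to 409 CPM in sham. Of 4 fibroblast and pericyte markers 3 rose, and their sum did not overlap, at 316 to 399.99 CPM in HP-AKI and 203 to 237 CPM in sham. Of 3 thick ascending limb markers 1 rose and 1 fell, and of 3 podocyte markers 2 rose and 1 fell. Of 4 distal tubule and collecting duct markers 3 fell, and 0 of 5 red cell markers passed. These counts stand against 37.7% of all tested genes called higher and 35.2% called lower. A count of 3 in 4 called is near the 72.8% called in either direction. How far changes in cell make-up enter the levels of the 9 regulators was not tested.

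Over the 12 libraries, the genes whose log2 CPM followed a regulator most closely were sought among 11184 other protein-coding genes averaging 5 CPM or more. For regulators that differed strongly between the groups, the correlations describe mostly that step. Nfe2l1 and Keap1 had small log2 fold changes, 0.08 and 0.40. Their deviations within groups had correlations of 0.937 and 0.957 with the GC trend of the library, which differed between libraries. The part of this trend in the likeness was not tested. Lcn2 and Cdkn1a followed Maff most closely (Pearson r 0.999 each), Hmga1 and Stat3 followed Mafk (0.997 each), and F3 and Pogk followed Nfe2l2 (0.997 and 0.996). Phldb1 and Adrbk1 followed Mafg (0.997 and 0.996), and Parp4 and Cog3 followed Bach1 (0.996 each). Tmem63b and Mroh1 followed Keap1 (0.990 and 0.988), Pcnxl3 and Pex16 followed Nfe2l1 (0.982 and 0.979), and Irf2bpl and Plet1 followed Nfe2l3 (0.980 and 0.978). For Bach2 the closest were Cecr2 and Ndel1, at 0.910 and 0.905.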

How the data were processed

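Messenger RNA of whole mouse kidney had been sequenced in 6 HP-AKI and 6 sham samples, grouped by their titles. Libraries were made with the TruSeq RNA kit, version 2, per the labels. This kit does not mark strand. The authors deposited raw counts per gene, and RPKM values that the authors made per kilobase of the listed gene length. No test used the RPKM values, and 0 columns of per-sample values were left unused. GRCm38, featureCounts, TopHat2 2.1.0 and edgeR stand in the submitters' processing notes, without their settings.

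For the tests, counts filtered with filterByExpr went into edgeR 4.0.16 under R 4.3.3 (limma 3.58.1), with TMM factors, a two-sided quasi-likelihood F-test and Benjamini-Hochberg adjustment over 17470 genes, and a threshold of 0.05. CPM values were scaled by TMM. Standard errors of log2 fold changes had a median of 0.141. GC content and overlaps came from GENCODE vM21 (GRCm38), promoter windows from RefSeq. Log2 ratios used a prior count of 2. No sample number occurs in both groups, hence nothing was paired, and no 2 libraries were near-identical.

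The members, lists and tests were chosen with earlier results of these data known. Named genes were all 9 members. From each list came the 2 called genes with the largest rise, the called gene with the largest fall and the gene with the highest mean CPM. From all other genes came the 2 with the highest correlation with each member. Some genes that the rule names are not reported here. A few list genes were named outside this rule, after their values were seen: Cul3, Btrc, Skp1a, Fbxw11, Ngly1, Ddi2, Slc40a1 and Psma4. Alternatives were other normalizations (among them DESeq2 factors), filters, DESeq2 1.42.0, limma-voom, libraries left out and, chosen after seeing the data, GC offsets and pools and level orders without 3 libraries. Tables and plots were made with matplotlib 3.10.9, numpy 2.4.6, pandas 2.3.3 and Python 3.11.15.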

Additional observations from a re-analysis of the deposited data

Results flagged for a closer look

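Each of the 9 regulators was checked in each group for a single library far from the other 5 (Dixon's criterion at 95%), and 4 of 18 groups had one, where chance gives about 1 in 20. Nfe2l2 stood at 347 CPM in HP-AKI 8, against 255 to 287 CPM in the other HP-AKI libraries. Bach1 stood at 181 CPM in the same library, against 138 to 149 CPM in the others. HP-AKI 8 is also the HP-AKI library with the strongest loss of GC-rich transcripts, and its part in these values was not tested. Nfe2l3 was low in HP-AKI 12, at 2.18 CPM against 3.72 to 4.57 CPM in the others. Maff was high in sham 5, at 2.82 CPM against 1.49 to 1.83 CPM in the other sham libraries. Leaving out the library in question moved no call of these 4 genes.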

How the results depend on the processing

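Over 21 alternatives, the 9 log2 fold changes gave 189 values, of which 180 kept their direction and their side of the threshold. The other 9 concern Keap1 and Nfe2l1. Keap1 (0.40) no longer passed with upper-quartile factors (0.34, adjusted p 0.0591) or with no filter on low counts (0.35, adjusted p 0.0590), and leaving out 1 library gave 0.32 to 0.46, with 6 of 12 values not past the threshold. Over all its alternatives the adjusted p of Keap1 ran from 1.80e-05, with the GC offsets, to 0.0923. Nfe2l1 (0.08) reversed to -0.010 without HP-AKI 8, sham 1 and sham 2 (adjusted p 0.907). The cause was not tested. Maff stayed within 5.92 to 6.19, Mafk 2.37 to 2.62, Mafg 0.67 to 0.91, Nfe2l2 1.15 to 1.36, Nfe2l3 1.70 to 2.0, Bach1 1.23 to 1.43 and Bach2 -0.65 to -0.40. All 105 values of the 7 pairs over 15 alternatives kept direction and side.

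The number of genes called was 11163 to 14633, all within 1.5 times the 12720 reported. With library size as the only scaling the median log2 fold change of all genes moved to 0.16. Of 420 list counts 409 stayed within 1.5 times. The 11 others were BACH turnover genes called higher (1 in place of 0, in 4 alternatives), heme and iron genes called lower (1 in place of 0, in 2), KEAP1 partners called lower (2 in place of 1, without HP-AKI 12) and coactivators called lower (2 in place of 1, in 4). No paired analysis was possible because the groups share no sample numbers. Depth limits Nfe2l3 and, in sham, Maff, which rested on 231 counts (Nfe2l3, sham), 841 counts (Nfe2l3, HP-AKI) and 410 counts (Maff, sham).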

Other observations

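Some of the regulators also varied together between libraries of the same group. After each group's mean was taken off, Mafg and Mafk varied in parallel over the 12 libraries (Pearson r 0.961), as did Mafg and Keap1 (0.938), Nfe2l1 and Keap1 (0.933), Bach1 and Bach2 (0.815) and Nfe2l2 and Bach1 (0.789), while Nfe2l2 and Keap1 varied in opposite directions (-0.848). For Maff the correlations with the other regulators ran only from -0.08 (Bach1) to 0.44 (Mafk). The points share the library, and the GC trend of the library ran with them. Its correlation with the same deviations was 0.97 for Mafg, 0.957 for Keap1, 0.937 for Nfe2l1 and 0.908 for Mafk, 0.387 for Maff, -0.762 for Bach1 and -0.773 for Nfe2l2. Mafg, Keap1 and Mafk have 58.5% to 60.9% GC, and Nfe2l2 and Bach1 45.0% and 47.9%. Maff and Nfe2l3 both have 57.7%, and the correlation for Nfe2l3 was -0.405. These values are descriptions with no test.

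With offsets for the GC trend of each library the fold changes of the 9 regulators moved by little while most standard errors fell. The log2 fold change of Mafg was 0.80 ± 0.07 (SE), against 0.80 ± 0.13 without the offsets, and that of Mafk 2.51 ± 0.07, against 2.51 ± 0.14. Nfe2l1 was at 0.08 ± 0.05 and did not pass with the offsets either (adjusted p 0.143). For Maff and Nfe2l3 the standard error did not fall, at 0.16 and 0.32. These offsets were chosen after seeing the data. They were fitted to the deviations of each library from its own group mean, in these same data. Stable fold changes and smaller standard errors follow largely from that, and the adjusted p does not allow for the fit.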
